A study of Mus musculus with 6 samples.

Results

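Small GTPases are molecular switches that are active when bound to GTP and inactive when bound to GDP. Guanine nucleotide exchange factors load them with GTP, and GTPase-activating proteins speed the hydrolysis that turns them off. RhoA, Rac and Cdc42 shape the actin cytoskeleton, Ras and Rap proteins act in growth factor signalling and cell adhesion, and Rab and Arf proteins direct vesicle traffic. In liver these switches take part in the barrier and shape of sinusoidal endothelium, in stellate cell contraction and in the traffic of receptors and transporters in hepatocytes.

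The genes described here are those of a mouse liver RNA-seq table whose symbol begins with a name of a regulator family: Arhgap, Arhgef, Dock, Rasgr, Rasa, Rasal, Rapgef, Rap1gap, Ralgap, Sipa1, Tbc1d, Dennd, Iqgap, Fgd, Plekh, Srgap, Syngap or Agap. There were 33 such genes among the 1834 of the table. Of these, 19 were exchange factors (Arhgef, Dock, Rasgr, Rapgef, Dennd, Fgd and Plekhg), 11 carried the name of a GTPase-activating family (Arhgap, Srgap, Rasal, Tbc1d and Agap), and 2 were scaffolds or adaptors (Iqgap1 and Plekhh3). The remaining gene, Rapgef4os3, is an antisense RNA and encodes no exchange factor. Tbc1d32 has the TBC name but is known as a ciliary protein without a shown GTPase-activating role, and it was kept in its class by name. The GENCODE annotation holds 191 coding gene entries with these prefixes, and the 159 outside the table were not analysed here. By class and GTPase, the table held 3 of 7 annotated exchange factors for Rap, 2 of 6 for Ras and 3 of 14 for Rab. Among GTPase-activating genes it held 5 of 30 for Rab, 1 of 8 for Ras, 1 of 3 for Arf and 0 of the 3 for Ral and 6 for Rap.

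The livers came from mice on one diet that had received an adeno-associated virus (AAV), either with green fluorescent protein (AAV-GFP, labelled wild type, 3 libraries) or with Ly6d (AAV-Ly6d, labelled Ly6d overexpression, 3 libraries). The vector's promoter and dose, the time after injection, the age and sex of the mice and the kind of diet are details not given in the sources here. The series title names MASLD, a fatty liver disease linked to metabolic dysfunction, and the comparison asks how Ly6d overexpression changes liver gene expression. Whether each library is a different mouse is not said in the labels. The p-values then reflect only library-to-library spread, which may be technical. The table held between 3248078 and 4359932 reads per library, which is part of each library's depth, since the table holds only some genes. Its genes seem to be a selection made on the contrast of these 6 libraries. Calls therefore hold inside the table only and adjusted p-values understate the error. Ly6d itself, the overexpressed gene, rose with a log2 fold change of 5.79 (SE 0.88, limma adjusted p = 0.0182), and its groups did not overlap. AAV-GFP replicate 2 stood apart within its group, with a first principal component score of -49.9 against -15.4 and -18.1.

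Values were lower in AAV-Ly6d liver for 73.7% of exchange factors, 72.7% of GTPase-activating genes and 60.7% of all tested genes. The smallest p-values among falls were in Plekhg1, Rasgrp3 and Rapgef5. The Rap exchange factor gene Rapgef4 and the Rab GTPase-activating gene Tbc1d8 were higher. In bulk liver RNA, fewer cells of a type and less RNA per cell cannot be told apart. All 33 genes reached 1 or more in at least 3 libraries, the filter used, and were tested with limma on log2(value + 1). A gene "rose" or "fell" when its Benjamini-Hochberg adjusted p over the 1780 tested genes was under 0.05. Of the 33 genes 13 fell, 2 rose and 18 did not pass. In the table as a whole 28.0% of tested genes fell and 15.9% rose, 43.9% in all, against 39.4%, 6.06% and 45.5% of the 33. For 20 of the 33 genes (60.6%) all libraries of one group lay above all of the other, against 84.5% of all tested genes. The adjusted p-values lay close together, from 0.0287 to 0.16, so small shifts moved many genes across the threshold. When AAV-GFP replicate 1, 2 or 3 was left out, 1, 8 and 0 genes fell and 2, 4 and 1 rose. Without AAV-Ly6d replicate 1, 2 or 3, 0, 3 and 0 genes fell and 0 rose in limma in each case, with 18, 15 and 19 genes at an unadjusted p under 0.05. With edgeR and TMM factors on all libraries 8 fell and 8 rose. With DESeq2, run on the scale of the deposited values as limma was, 17 fell and 4 rose.

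**Figure D1:**
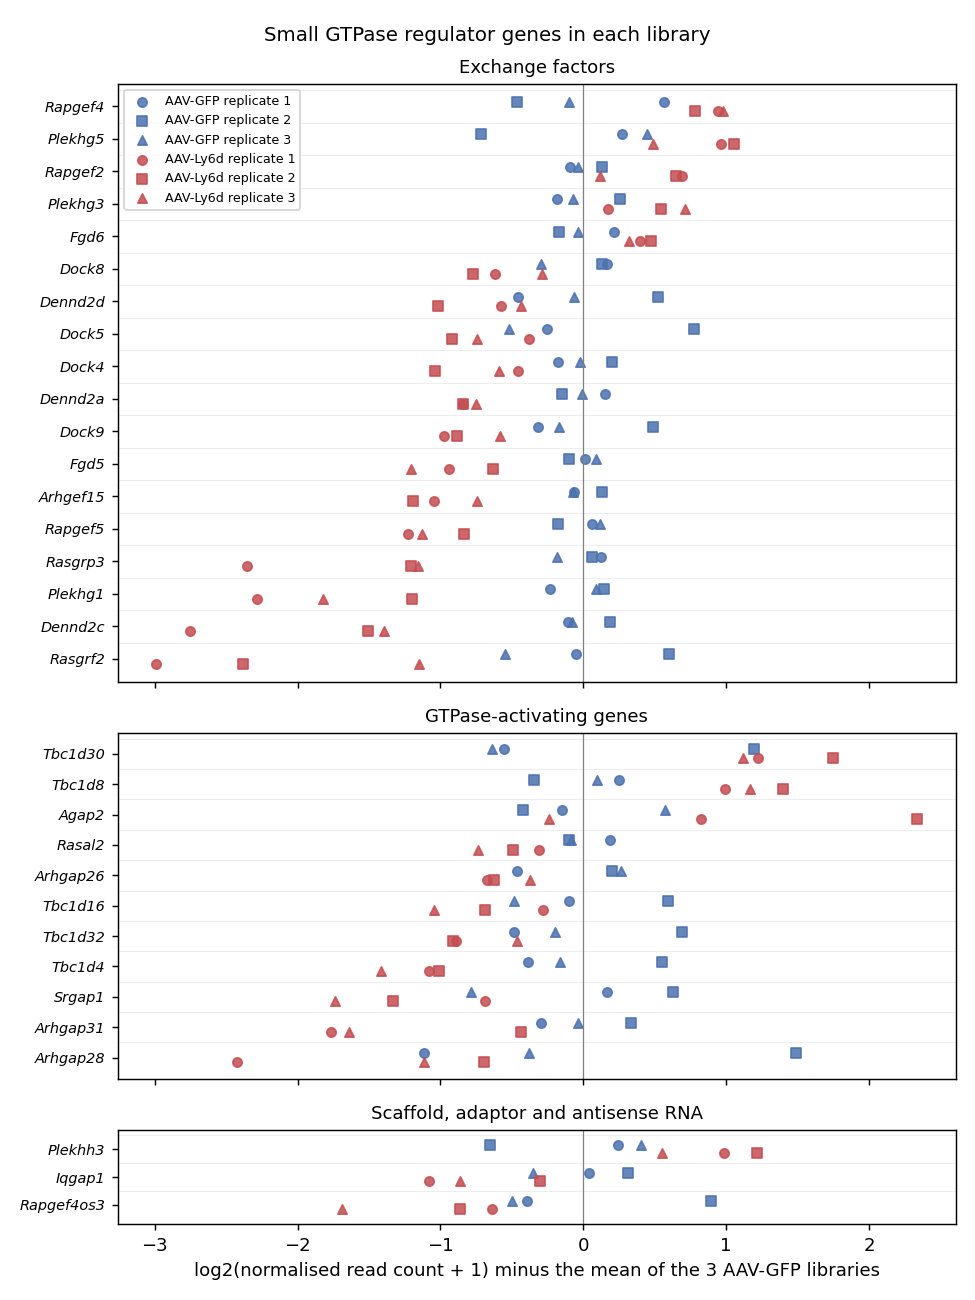
The position of each library for each of 32 genes, as log2(normalised read count + 1) minus the mean of the 3 AAV-GFP libraries, with AAV-GFP in blue, AAV-Ly6d in red and the replicate number as the marker shape. Red markers lie to the left of all blue ones for the 12 genes shown that fell, and AAV-GFP replicate 2 (blue squares) is the highest AAV-GFP library for 19 of the 32.

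DESeq2 on recovered reads, adjusted over all 55450 genes of the annotation (p set to 1 where a gene was not listed), called 6.97% of the tested genes and 4 of the 33 (12.1%). These were Plekhg1 (adjusted p = 0.00568), Rapgef5 (adjusted p = 0.0139), Rasgrp3 (adjusted p = 0.0476) and Tbc1d8 (adjusted p = 0.00649). Limma with the same adjustment called 0 of the 33, with 20 at an unadjusted p under 0.05. Both fits used the scale of the deposited values.

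Promoter windows are shown for these 4 genes, which passed the widest adjustment, and for Rapgef4, the other gene that rose. They are RefSeq windows on GRCm38.p6, each from 250 bases before to 50 bases after a start site, given for the gene's outermost window in that table, and capitals mark each CpG. Plekhg1, Rasgrp3 and Rapgef5 fell, and Rapgef4 and Tbc1d8 rose.
Plekhg1 (chr10:3872417-3872716, plus strand): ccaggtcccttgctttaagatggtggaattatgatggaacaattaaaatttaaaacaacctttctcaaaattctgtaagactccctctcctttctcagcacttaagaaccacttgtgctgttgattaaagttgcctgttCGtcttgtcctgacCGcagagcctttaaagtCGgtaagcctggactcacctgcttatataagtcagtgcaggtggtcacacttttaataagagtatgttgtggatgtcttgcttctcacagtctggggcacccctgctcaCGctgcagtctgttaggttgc
Rasgrp3 (chr17:75435655-75435954, plus strand): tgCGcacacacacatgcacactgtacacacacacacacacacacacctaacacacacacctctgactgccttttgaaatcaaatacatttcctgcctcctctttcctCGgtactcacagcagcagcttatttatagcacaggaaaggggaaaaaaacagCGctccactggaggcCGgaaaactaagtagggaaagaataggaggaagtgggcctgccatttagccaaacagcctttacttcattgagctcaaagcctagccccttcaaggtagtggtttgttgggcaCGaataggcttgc
Rapgef5 (chr12:117516276-117516575, plus strand): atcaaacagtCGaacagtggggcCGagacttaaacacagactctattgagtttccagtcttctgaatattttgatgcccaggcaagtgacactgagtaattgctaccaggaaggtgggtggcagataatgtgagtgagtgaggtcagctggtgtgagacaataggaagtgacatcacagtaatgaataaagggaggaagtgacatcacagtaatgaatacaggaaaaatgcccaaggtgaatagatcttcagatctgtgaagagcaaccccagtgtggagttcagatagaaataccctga
Rapgef4 (chr2:71980965-71981264, plus strand): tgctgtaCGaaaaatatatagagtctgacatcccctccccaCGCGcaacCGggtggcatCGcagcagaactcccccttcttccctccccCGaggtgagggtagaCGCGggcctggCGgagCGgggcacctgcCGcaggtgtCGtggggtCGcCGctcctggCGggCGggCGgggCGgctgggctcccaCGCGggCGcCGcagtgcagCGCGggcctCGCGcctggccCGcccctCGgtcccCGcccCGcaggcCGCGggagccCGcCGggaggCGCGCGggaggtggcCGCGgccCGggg
Tbc1d8 (chr1:39478706-39479005, minus strand): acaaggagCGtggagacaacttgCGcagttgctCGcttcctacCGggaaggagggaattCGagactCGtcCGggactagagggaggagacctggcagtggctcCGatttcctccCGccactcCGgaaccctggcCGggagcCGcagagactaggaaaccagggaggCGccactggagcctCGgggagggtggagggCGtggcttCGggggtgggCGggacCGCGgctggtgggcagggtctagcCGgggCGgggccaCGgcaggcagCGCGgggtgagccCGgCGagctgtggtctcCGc

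The Plekhg1 window, the 1 listed for it, lies inside the gene as annotated by GENCODE (chr10:3740364-3967303) and so marks an internal start site. These windows held 4 CpG in Plekhg1, 5 in Rasgrp3 and 2 in Rapgef5, against 40 in Rapgef4 and 27 in Tbc1d8. A further start site lay downstream in Rasgrp3 and in Rapgef5, whose windows held 9 and 39 CpG. Among other genes that fell, the window held 37 in Fgd5, 33 in Dennd2a, 29 in Dock4, 28 in Rasgrf2 and 12 in Tbc1d4. Windows of Dock9 held 5, 7 and 41, and those of Dennd2c 3 and 8. Of the 33 genes 23 had a window in the RefSeq table, 36 windows in all. The median was 14 CpG in 24 windows of genes with a lower level in AAV-Ly6d, 24 in 12 windows of genes with a higher level and 16 in the 1643 windows of genes of the deposited table. The ETS motif CCGGAAGT, searched on both strands, was in 2 of the 36 windows (5.56%) and in 3.89% of all 32851 windows of that length. Both were windows of Plekhg5 that overlap each other. No match in a window says only that these letters are not in it.

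Both exchange factors for Ras fell, and those for Rap moved in both directions. Rasgrp3, which is activated by diacylglycerol and loads Ras and Rap, held 199, 190.5 and 161 in AAV-GFP and 35, 78.7 and 81.6 in AAV-Ly6d. Its AAV-GFP libraries lay close together and all 3 AAV-Ly6d libraries were below them, a log2 fold change of -1.57 (SE 0.37, limma adjusted p = 0.0331). Rasgrf2, a calcium-regulated exchange factor known from neurons, was low in all libraries, with 29, 46.3 and 20.3 in AAV-GFP and 2.92, 4.98 and 13.1 in AAV-Ly6d. It fell by 2.17 on the log2 scale (limma adjusted p = 0.0386), the largest fall of the 33, but the AAV-Ly6d libraries had only 3, 5 and 12 reads. Rapgef5, a Rap exchange factor, held 339, 286 and 351 in AAV-GFP and 138, 181 and 148 in AAV-Ly6d. The groups were well apart and the level in AAV-Ly6d was 0.479 times that in AAV-GFP (log2 fold change -1.06, SE 0.23, limma adjusted p = 0.0324). When each library was rescaled by its median ratio it had a log2 fold change of -0.72 and no longer passed (adjusted p = 0.0519).

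The other 2 Rap exchange factors were higher. Rapgef4, also called Epac2, is opened by cyclic AMP and was the most abundant of the 33 per transcript length, at 738 normalised reads per kilobase of its longest transcript. It held 3135, 1533 and 1977 in AAV-GFP and 4069, 3640.4 and 4168 in AAV-Ly6d. All AAV-Ly6d libraries were above all AAV-GFP libraries, and the gene rose (log2 fold change 0.90, SE 0.26, limma adjusted p = 0.0414). This value was 0.67 without AAV-GFP replicate 2, the lowest library, and still passed (adjusted p = 0.0483). In all, Rapgef4 passed in 2 of the 6 leave-one-out fits and missed the threshold when any AAV-Ly6d library was left out. With DESeq2 adjusted over all annotated genes it did not pass (adjusted p = 0.687). Rapgef2, which acts on Rap1 at cell junctions, held 431, 503 and 449 in AAV-GFP and 743, 719.5 and 499 in AAV-Ly6d, with the groups overlapping at AAV-Ly6d replicate 3, and did not pass (log2 fold change 0.49, adjusted p = 0.0678).

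Rapgef4os3 is a minus-strand gene at chr2:72244965-72248975 (GRCm38), inside the span of Rapgef4 (plus strand, 71981240 to 72257474) and without exon overlap. It held 84.2, 208 and 78.5 in AAV-GFP and 71, 60.8 and 33.7 in AAV-Ly6d. Its groups did not overlap, but it did not pass (log2 fold change -1.06, adjusted p = 0.0642), and AAV-GFP replicate 2 was its highest library while it was the lowest for Rapgef4. The strand setting of the read counting was not given in sources used here, so reads from the introns of Rapgef4 and from this RNA cannot be told apart. Exons of Rapgef4 share 337 bases with another antisense RNA, Rapgef4os2, which was not analysed here. Reads there cannot be told apart either.

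Exchange factors that act on the actin cytoskeleton included Plekhg1, Fgd5 and Arhgef15, each of which fell. Plekhg1, which acts on Cdc42 and is known from endothelial cells, held 120.0, 156 and 150.2 in AAV-GFP and 28.2, 60.8 and 39.2 in AAV-Ly6d. All AAV-GFP libraries were far above all AAV-Ly6d libraries, and the gene fell by 1.77 on the log2 scale (SE 0.35, limma adjusted p = 0.0287). Fgd5, a Cdc42 exchange factor of endothelial cells, held 161, 148 and 169.6 in AAV-GFP and 82.6, 103 and 68.5 in AAV-Ly6d. Its groups were clearly apart and it fell by 0.92 on the log2 scale (adjusted p = 0.0405), but it did not pass after rescaling (-0.58, adjusted p = 0.114) or in edgeR (adjusted p = 0.064). Arhgef15, an exchange factor for RhoA known from vascular cells and neurons, held 149, 171 and 149 in AAV-GFP and 74.9, 67.8 and 92.5 in AAV-Ly6d, with groups that did not overlap. Its level fell by 0.99 on the log2 scale (SE 0.26, adjusted p = 0.0366), and it did not pass after rescaling (-0.66, adjusted p = 0.0628).

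The 4 DOCK genes, exchange factors for Rac and Cdc42, were all lower and by smaller amounts, with log2 fold changes from -0.81 to -0.56. Dock4 held 645, 837 and 716 in AAV-GFP and 531, 355 and 483 in AAV-Ly6d, and fell with adjusted p = 0.0453. Dock9, a Cdc42 exchange factor, held 337, 588 and 373 in AAV-GFP and 213, 227 and 279.6 in AAV-Ly6d, and fell with adjusted p = 0.0464. Dock8, known for its role in leukocyte migration, held 1102, 1074 and 797 in AAV-GFP and 639.6, 573 and 801 in AAV-Ly6d. Its groups met at AAV-GFP replicate 3 and AAV-Ly6d replicate 3, and it did not pass (adjusted p = 0.0569). Dock5, which acts on Rac, held 558, 1139.5 and 465 in AAV-GFP and 511, 353 and 398 in AAV-Ly6d and did not pass (adjusted p = 0.09); AAV-GFP replicate 2 was far above the rest, and its log2 fold change went from -0.68 to -0.29 without that library. Neither Dock4 nor Dock9 passed after median-ratio rescaling (adjusted p = 0.217 and 0.11) or in edgeR (adjusted p = 0.183 and 0.0857).

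Fgd6, Plekhg3 and Plekhg5 had higher values in AAV-Ly6d, and 0 of the 3 passed. Fgd6 held 1419, 1087 and 1192 in AAV-GFP and 1617, 1702 and 1531 in AAV-Ly6d, with all AAV-Ly6d libraries above all AAV-GFP libraries (log2 fold change 0.40, adjusted p = 0.0657). Plekhg3 held 551, 746 and 593 in AAV-GFP and 706, 909 and 1025 in AAV-Ly6d, where the groups overlapped (log2 fold change 0.48, adjusted p = 0.0704). Plekhg5, a RhoA exchange factor, held 75.5, 37.7 and 85.2 in AAV-GFP and 122, 131 and 88.1 in AAV-Ly6d with a small gap between the groups (log2 fold change 0.84, adjusted p = 0.0676). These 3 genes and Rapgef2 passed as higher after rescaling by the median ratio (log2 fold changes of 0.74 for Fgd6, 0.82 for Plekhg3, 1.17 for Plekhg5 and 0.83 for Rapgef2) and in edgeR with TMM factors. Rescaling moved the median of all tested genes by 0.34, and the split of the 33 genes went from 13 lower and 2 higher to 5 lower and 8 higher.

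The DENN domain genes, exchange factors for Rab proteins on endosomes, were represented by 3 members of the Dennd2 group. Dennd2c was the lowest of them and held 17.4, 21.5 and 17.7 in AAV-GFP and 1.94, 5.98 and 6.53 in AAV-Ly6d, from 2, 6 and 6 reads in AAV-Ly6d. All AAV-Ly6d libraries were well below AAV-GFP and it fell by 1.88 on the log2 scale (SE 0.51, adjusted p = 0.0386). Dennd2a held 78.4, 63.5 and 70 in AAV-GFP and 38.9, 38.9 and 41.3 in AAV-Ly6d, with little spread in either group, and fell with a log2 fold change of -0.81 (adjusted p = 0.0497), just inside the threshold. It did not pass in edgeR (adjusted p = 0.135) or after rescaling (adjusted p = 0.207). Dennd2d held 127, 251 and 166 in AAV-GFP and 117, 85.7 and 128 in AAV-Ly6d; its groups overlapped narrowly, between AAV-GFP replicate 1 and AAV-Ly6d replicate 3, and it did not pass (adjusted p = 0.0779).

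Of the 11 GTPase-activating genes 2 fell, 1 rose and 8 did not pass, that is 18.2% and 9.09% against 28.0% and 15.9% of all tested genes. Fitted values were lower for 8 (72.7%, against 60.7% of all tested genes), and the groups did not overlap for 4 (36.4%, against 84.5%). Tbc1d8, a TBC domain gene of the Rab GTPase-activating family, held 386, 255 and 347 in AAV-GFP and 647, 856 and 728 in AAV-Ly6d. Every AAV-Ly6d library was above every AAV-GFP library, by a ratio of means of 2.26, and it rose (log2 fold change 1.18, SE 0.23, limma adjusted p = 0.0287). It passed when any one AAV-GFP library was left out and missed the threshold when any AAV-Ly6d library was, with log2 fold changes from 1.01 to 1.31. Its exons share 420 bases with those of the ribosomal protein gene Rpl31 on the opposite strand, which was not analysed here, and without a stated strand setting their reads cannot be told apart there. Tbc1d30, which acts on Rab8 and is known from primary cilia, held 61, 207 and 57.4 in AAV-GFP and 211, 304 and 196 in AAV-Ly6d. AAV-GFP replicate 2 reached the AAV-Ly6d range while the other AAV-GFP libraries were far below it, and the gene did not pass (log2 fold change 1.36, adjusted p = 0.0522). Without that library its log2 fold change was 1.96 (adjusted p = 0.0154).

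Tbc1d4, also called AS160, is an Akt substrate that holds back glucose transporter traffic until insulin acts. It held 74.5, 143 and 86.9 in AAV-GFP and 45.7, 47.8 and 35.9 in AAV-Ly6d, with the highest AAV-Ly6d library below the lowest AAV-GFP library, and fell by 1.17 on the log2 scale (SE 0.34, limma adjusted p = 0.0414). It also passed after rescaling, in edgeR and without AAV-GFP replicate 2 (-0.89, adjusted p = 0.049). That was the only 1 of the 6 leave-one-out fits in which it passed. With DESeq2 adjusted over all annotated genes it did not pass (adjusted p = 0.352). Tbc1d16 held 479, 775 and 366 in AAV-GFP and 422, 319 and 249 in AAV-Ly6d and did not pass (log2 fold change -0.67, adjusted p = 0.0794). Tbc1d32 held 164, 373 and 201 in AAV-GFP and 124, 123 and 168 in AAV-Ly6d and did not pass either (log2 fold change -0.75, adjusted p = 0.0688). In both, AAV-GFP replicate 2 was far above the other libraries and the groups overlapped.

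The 3 Arhgap genes and Srgap1 had lower values, and 1 of them fell. Arhgap31, also called CdGAP, acts on Cdc42 and Rac and held 231, 357 and 276 in AAV-GFP and 82.6, 209 and 90.3 in AAV-Ly6d. AAV-Ly6d replicate 2 came close to the AAV-GFP range while the other AAV-Ly6d libraries were far below, and the gene fell by 1.28 on the log2 scale (SE 0.39, limma adjusted p = 0.0414). It did not pass without AAV-GFP replicate 2 (adjusted p = 0.0642) or after rescaling (adjusted p = 0.0527). Srgap1, which acts downstream of Slit and Robo, held 27.1, 37.7 and 13.5 in AAV-GFP and 14.6, 8.97 and 6.53 in AAV-Ly6d, and Arhgap28, which acts on RhoA, held 8.71, 58.1 and 15.2 in AAV-GFP and 2.92, 12 and 8.7 in AAV-Ly6d. Both were low and their groups overlapped, with adjusted p = 0.0607 and 0.105 and log2 fold changes of -1.25 and -1.41. The value of Arhgap28 was -0.67 without AAV-GFP replicate 2. Arhgap26, also called GRAF, held 211, 335 and 351 in AAV-GFP and 183, 188 and 225 in AAV-Ly6d and did not pass (log2 fold change -0.56, adjusted p = 0.0768).

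Of the genes for other GTPases, Rasal2, a Ras GTPase-activating gene, held 359.9, 295 and 299 in AAV-GFP and 256, 224 and 189 in AAV-Ly6d. The groups were apart, but the difference was small and did not pass (log2 fold change -0.51, adjusted p = 0.0637). Agap2, an Arf GTPase-activating gene, held 40.6, 33.4 and 67.5 in AAV-GFP and 80.7, 232 and 38.1 in AAV-Ly6d. Its higher mean in AAV-Ly6d rested on replicate 2, and it did not pass (log2 fold change 0.98, or 0.29 without that library, adjusted p = 0.16).

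The scaffold Iqgap1 binds Rac and Cdc42 without turning them off, in spite of its name. It held 403, 485 and 305 in AAV-GFP and 185, 317 and 214 in AAV-Ly6d and did not pass (log2 fold change -0.75, adjusted p = 0.0561). Plekhh3, a protein with PH and FERM domains, held 113, 60.3 and 127 in AAV-GFP and 189.6, 222 and 140.3 in AAV-Ly6d. All AAV-Ly6d libraries were above all AAV-GFP libraries, but it did not pass (log2 fold change 0.92, adjusted p = 0.0562). Its exons share 233 bases with Cntnap1 on the opposite strand, and those of Dennd2d share 771 with Cept1.

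**Figure D2:**
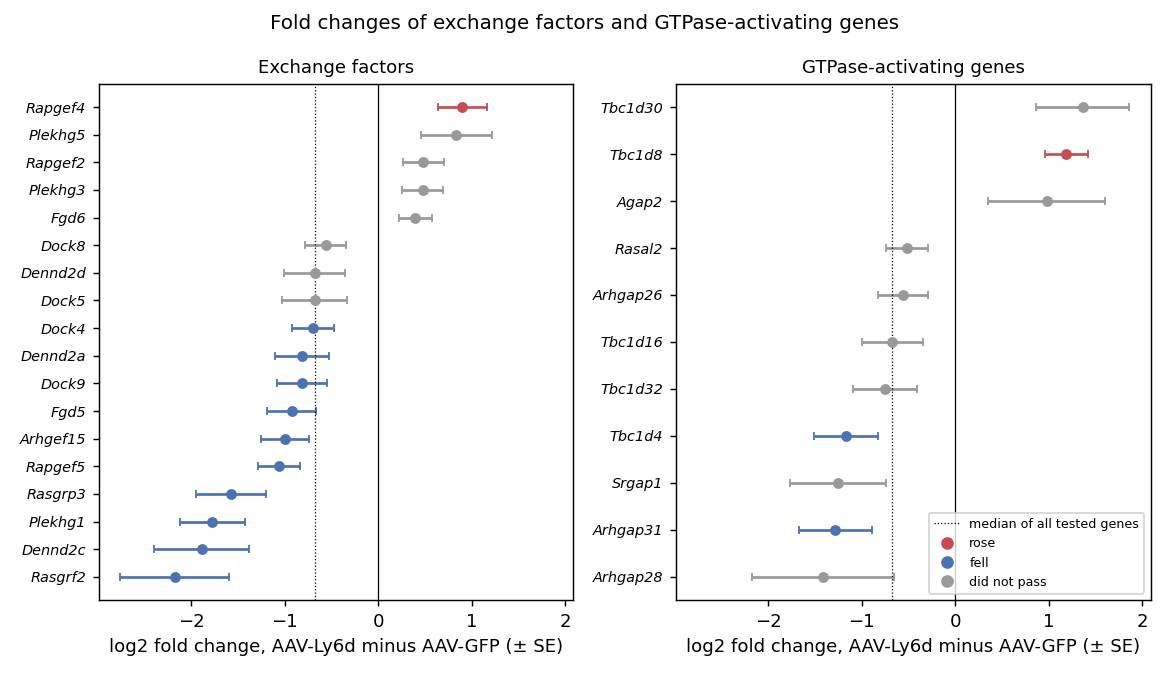
Log2 fold changes (AAV-Ly6d minus AAV-GFP, with SE) of 18 exchange factors on the left and the 11 GTPase-activating genes on the right, coloured by whether the gene rose, fell or did not pass limma's adjusted p of 0.05. The dotted line is the median of all tested genes (-0.67), and 10 exchange factors and 2 GTPase-activating genes are in blue.

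Set side by side, 11 of 19 exchange factors fell and 1 rose (57.9% and 5.26%), and 2 of 11 GTPase-activating genes fell and 1 rose. Of all tested genes 28.0% fell and 15.9% rose. The share of genes with a lower fitted value was 73.7% for exchange factors and 72.7% for GTPase-activating genes, against 60.7% of all tested genes. The median log2 fold change was -0.81 for exchange factors, -0.67 for GTPase-activating genes and -0.67 for all tested genes. After rescaling by the median ratio these medians were -0.47, -0.33 and -0.33. Without AAV-GFP replicate 2 they were -0.59, -0.46 and -0.40, and 7 of 19 and 1 of 11 genes fell. The 362 tested genes with a transcript of at least 6222 bases had a median of -0.86. It was -0.53 after rescaling and -0.59 without AAV-GFP replicate 2. Since genes are not replicates of a condition the difference between the classes was not tested.

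In each library the median over the exchange factors of log2(value + 1) minus the gene's mean over the 6 libraries was 0.43, 0.55 and 0.32 in AAV-GFP and -0.43, -0.43 and -0.18 in AAV-Ly6d. The groups were apart. For GTPase-activating genes it was -0.11, 0.93 and 0.17 in AAV-GFP and -0.06, -0.24 and -0.48 in AAV-Ly6d. There AAV-GFP replicate 1 lay below AAV-Ly6d replicate 1, and AAV-GFP replicate 2 was far above the rest. Over all tested genes the values were 0.04, 0.49 and 0.06 in AAV-GFP and -0.24, -0.16 and -0.18 in AAV-Ly6d, so the groups were apart there too.

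**Figure D3:**
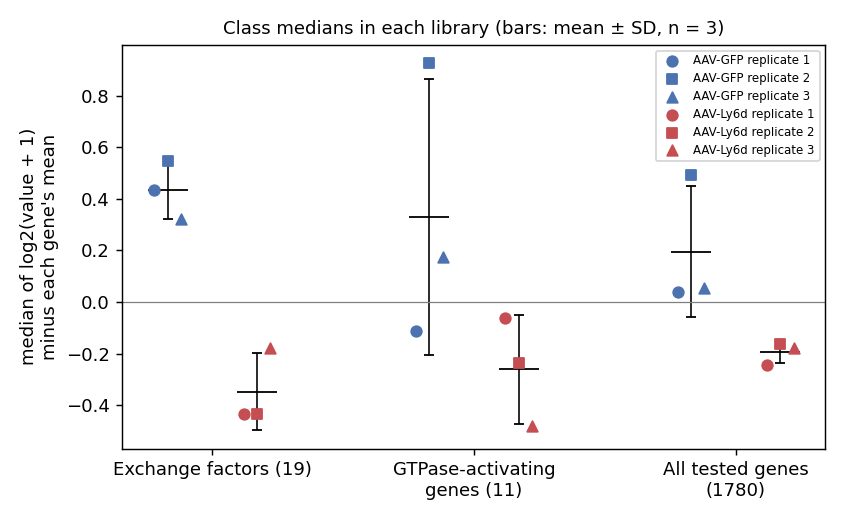
Class medians in each library, as the median over genes of log2(value + 1) minus the gene's mean over the 6 libraries, for exchange factors, GTPase-activating genes and all tested genes; bars are the mean ± SD of 3 libraries. AAV-GFP and AAV-Ly6d are apart for exchange factors and for all tested genes, whereas for GTPase-activating genes AAV-GFP replicate 1 (-0.11) lies among the AAV-Ly6d libraries.

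Transcripts of the 33 genes were long, at a median of 6222 bases for the longest annotated one against 3620.5 for all tested genes. Among the 362 tested genes with a transcript at least this long, 39.5% fell and 2.49% rose, and 90.9% had a lower fitted value. Of the 1418 shorter ones, 25.1% fell and 19.3% rose. The share of the 33 that fell, 39.4%, was thus near that of long transcripts in general, and 72.7% of the 33 had a lower fitted value. The median log2 fold change of the 362 long genes was -0.86. Exchange factors, with a median length of 6095 bases, had -0.81, and GTPase-activating genes, with 6986 bases, had -0.67. By calls, 57.9% of exchange factors and 18.2% of GTPase-activating genes fell. Across all tested genes with a length the log2 fold change and the length had a Spearman correlation of -0.30 (n = 1779), and across the 33 genes it was -0.09. Genes of a library share its depth and are not independent, and the part of length in these results was not tested.

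**Figure D4:**
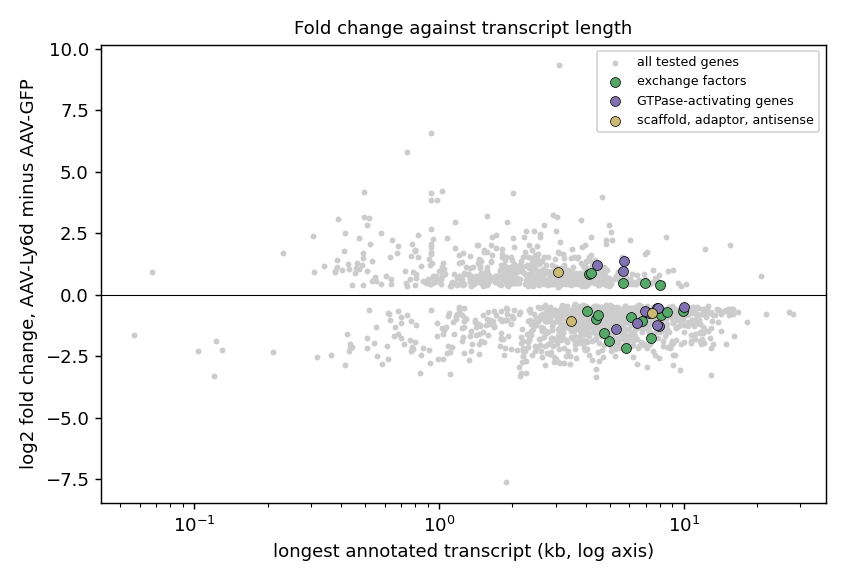
Log2 fold change (AAV-Ly6d minus AAV-GFP) against the length of the longest annotated transcript in kilobases on a log axis, for all tested genes (grey) and the regulator genes by class (coloured). The regulator genes lie between 3056 and 10047 bases, where lower values outnumber higher ones in the grey points.

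Endothelial markers in the table were lower in the same libraries. Genes of the table seem selected on this contrast, so how markers outside it changed is not known here. Of 30 listed markers 15 were in the table and all 15 fell (median log2 fold change -1.51), against 28.0% of all tested genes. Their summed normalised read count was 10538 to 15491 in AAV-GFP and 4068 to 5028 in AAV-Ly6d. Among them F8, Kdr and Fcgr2b, with the smallest p, had log2 fold changes of -1.99, -1.88 and -1.37. Of 22 stellate cell and fibroblast markers 12 were in the table, 8 of which fell and 0 rose, and their sum was 5228 to 6894 in AAV-GFP and 1701 to 3565 in AAV-Ly6d. Hgf, Colec10 and Lrat had log2 fold changes of -1.72, -1.69 and -1.75. None of these markers was at 0 in any library. The part of these cells in the falls of Plekhg1, Fgd5, Arhgef15, Rasgrp3 and the other genes was not tested. Of 28 Kupffer cell and leukocyte markers 0 were in the table, so for Dock8 no such value can be set beside it. Hepatocyte markers, which check the labelled tissue, had 11 of 25 in the table, of which 7 rose and 0 fell. Fitted values were higher for 10 of them and lower for 1, Apob (log2 fold change -0.61, did not pass). The sum of the 11 was 590906 to 1013932 in AAV-GFP and 760537 to 835629 in AAV-Ly6d. Apob alone made up 743167 of the 1013932, which was the sum in AAV-GFP replicate 2. Of 15 cholangiocyte markers 3 were in the table, where Tff3 and Sox9 rose and Pkhd1 fell, and their sum was 231 to 469 in AAV-GFP and 399 to 1174 in AAV-Ly6d.

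Other genes of the pathway followed a mixed pattern. For comparison, 28.0% of all tested genes fell and 15.9% rose. Of 117 listed small GTPases 11 were in the table, 2 of which rose (18.2%), 1 fell (9.09%) and 8 did not pass. Their median log2 fold change was 0.48. Rhobtb1, an atypical small GTPase gene, rose by 0.81, Rab9, a late endosome Rab on which Dennd2 proteins act, by 0.76, and Arf2 fell by 0.81 on the log2 scale. Rab9 held 768, 453 and 701 in AAV-GFP and 1072, 936 and 1188 in AAV-Ly6d, with no overlap (adjusted p = 0.044). Of 73 exchange factors outside the symbol prefixes 7 were in the table and all 7 had lower fitted values, 2 of which fell. These were Prex2, a Rac exchange factor (-1.29), and Tiam1, another (-1.52); Rgl1, for Ral, did not pass (-0.79, adjusted p = 0.0503). Of 65 further GTPase-activating genes 11 were in the table, where 6 fell, 3 rose and 2 missed the threshold (median -0.66). Outside the prefixes 28.6% of exchange factors and 54.5% of GTPase-activating genes fell. For calls that is the reverse order of the 57.9% and 18.2% among the 33 genes. The medians were not reversed, at -0.79 for these exchange factors and -0.66 for these GTPase-activating genes. Nor were the shares with a lower fitted value, at 100% and 72.7%. Stard8, a RhoA GTPase-activating gene, fell by 1.00 and Usp6nl, for Rab5, by 0.66 on the log2 scale, and Agfg2 rose by 0.96. Of 79 dissociation inhibitors and effectors 9 were in the table, with 1 rise (11.1%), 1 fall (11.1%) and 7 that did not pass. Baiap2l1, which links Rac to actin, rose by 1.00, Sytl4, a Rab27 effector, fell by 0.99 on the log2 scale, and Pak4, a Cdc42 effector kinase, did not pass (0.59, limma adjusted p = 0.0567).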

How the data were processed

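The authors sequenced 6 RNA libraries of mouse liver. The deposited table gives normalised read counts per gene (a signal scaled by library) and, per the labels, the reads were mapped to mm10; the submitters' processing notes name Bowtie 0.12.2. The counting tool, strand setting, annotation and the rule that chose the 1834 genes are not stated in the sources used here. Each value was a whole multiple of the worth of 1 read (tolerance 0.001 reads), and these recovered reads were used for edgeR 4.0.16 and DESeq2 1.42.0 as alternatives. DESeq2 was run on the scale of the deposited values, and edgeR with TMM factors. The main test was limma 3.58.1 (R 4.3.3, trend) on log2(value + 1), for genes with at least 1 in at least 3 libraries (1780 tested, 54 not), with Benjamini-Hochberg adjustment over tested genes and a threshold of 0.05. A fold change on this scale understates the change of low genes.

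Members and gene lists were chosen with earlier results of these data known. Named with values in each library were, per class, the 6 members with the smallest p, the 2 others with the highest mean and every member with a higher mean in AAV-Ly6d; the values of the remaining members were added afterwards. Of the 33 members, 1 is counted but not reported by name here. From each other list at most 3 genes were named. The antisense RNA Rapgef4os3 was set apart from the exchange factors after the data were seen. A planned search of protein sequences was not run. Lengths, coordinates and overlaps came from the GENCODE annotation and promoters from RefSeq (GRCm38.p6). The limma test was run on simulated counts with known changes, which held no outlying library and no selection of genes on the contrast. The edgeR and DESeq2 fits were not tested that way. Alternatives were leave-one-out fits, a replicate block, other filters and pseudocounts, median-ratio rescaling, limma without the trend, other tools, a stricter threshold, adjustment over all 55450 annotated genes and other class definitions. The DESeq2 adjustment over all annotated genes and 2 class definitions were chosen after seeing the data.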

Additional observations from a re-analysis of the deposited data

How the results depend on the processing

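Of 561 alternative values of single genes, 402 kept their direction and side of the threshold, 139 lost the call, 20 gained one and 0 had the other direction. Only the 15 called genes could lose a call, and the 402 include the 18 others where these stayed uncalled. Of the 15 calls, 0 to 10 were kept when 1 library was left out, 7 after rescaling, 10 with edgeR and 15 with DESeq2. The DESeq2 fit shared the scale of the deposited values with limma, so it cannot show how the calls depend on that scale. In all 6 leave-one-out fits 0 of the 33 genes passed. The 13 genes called lower became 5 after rescaling by the median ratio, 8 with edgeR, 3 with DESeq2 adjusted over all annotated genes, and 0 with limma adjusted over all annotated genes or at an adjusted p under 0.01; leaving out 1 library gave 0 to 8. The 2 called higher became 8 after rescaling, 8 with edgeR, 4 with DESeq2, 1 without the trend, 1 with DESeq2 over all annotated genes, and 0 with limma over all annotated genes or at 0.01; leaving out 1 library gave 0 to 4. The 11 exchange factors called lower became 4 after rescaling, 6 with edgeR, 3 with DESeq2 over all annotated genes, and 0 with limma over all annotated genes or at 0.01, with 0 to 7 when 1 library was left out. The 2 GTPase-activating genes called lower became 1 after rescaling, 1 without the trend and 0 over all annotated genes (both tools) or at 0.01, with 0 to 1 when 1 library was left out. The median of exchange factors was -0.47 after rescaling and -0.90 to -0.59 when 1 library was left out. In the whole table the share of calls that were higher went from 36.2% to 69.2% after rescaling and 69.3% with edgeR. Apart from leaving out samples, the cause was not tested.

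With a replicate block, limma called 0 of the 33 genes (smallest adjusted p 0.0505, 20 at an unadjusted p under 0.05), 0 exchange factors and 0 GTPase-activating genes, and 48 genes in the table against 782. The labels do not say that a replicate number marks a shared animal, litter or day, so the numbers were not taken as pairs. Same-numbered libraries had correlations of deviations of -0.02, -0.05 and -0.06. With 3 libraries per group these values cannot decide whether the libraries were paired.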
